A study of Punica granatum with 8 samples.

Results

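In pomegranate hairy roots, 65 genes had higher normalized transcript counts in 4 libraries than in the other 4, whatever construct the roots carried. They were chosen by these values. A gene was taken where its mean over the 8 deposited normalized columns was at least 20 and its lowest value in the 4 high libraries was at least 1.5 times its highest value in the 4 low libraries. The high libraries were replicates 1 and 2 overexpressing PgMyb308-like, replicate 2 of line 1712 and replicate 3 of the empty vector (EV), and the low libraries were PgMyb308-like replicate 3, line 1712 replicate 1 and EV replicates 1 and 2. Of 18831 genes in the table, 12628 reached the minimum mean and 67 met the rule (0.531%). In 2 of these 67 the lowest high library and all low libraries were at 0, and they are described apart from the other 65. The opposite pattern, with the same 4 libraries low, was met by 72 genes. The split was read from the same values, so the gap between the libraries is a description and was not tested.

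The libraries were TranSeq libraries, which count transcripts by their 3′ ends, from whole hairy roots of cultivar PG116-17 at 3 months of age. The libraries fell into 3 groups. PgMyb308-like, an R2R3 Myb transcription factor, was overexpressed in 3 lines under the constitutive cauliflower mosaic virus 35S promoter, and 3 lines carried the EV. The vector held a GFP marker with or without the gene. Another 2 libraries came from line 1712, whose label names PgMyb308 as the overexpressed gene. In the paper a GFP-positive root from each seedling was taken as a replicate. Each PgMyb308-like and EV library thus stands for a single root line and its own transformation event. How line 1712 was made, and whether its 2 libraries come from separate events, was not given in the sources used here. Library totals ran from 1263321 to 3976951 counts. The high libraries held 1263321 to 3008991 counts and the low ones 1854987 to 3976951, so that depth overlapped between the sides, although the shallowest library was a high one and both of the deepest were low ones. Thinned to 1263321 counts per library, 49 genes met the rule, and 35 of them were among the 65. The part of depth in the split was not tested beyond this.

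Hairy roots form where Agrobacterium rhizogenes has moved its root-inducing genes into plant cells. The transferred DNA lands at a different place in each event, and lines made with the same construct are known to differ in growth, branching and transgene level. A construct can therefore be told from its root line only over several lines. R2R3 Myb proteins bind DNA and switch genes on or off, and members of this family are known regulators of the lignin and flavonoid branches of phenolic metabolism. The genes below carry RefSeq identifiers only. Their products are not named in the sources used here, so no role is given to any of them, and neither the tissue nor the transgene was checked against its marker genes. In whole roots, fewer cells of a type and less RNA per cell cannot be told apart.

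The 65 genes took 1.46% of the counts of PgMyb308-like replicate 1, 0.773% of replicate 2, 0.674% of line 1712 replicate 2 and 0.557% of EV replicate 3. In the low libraries they took 0.177% in PgMyb308-like replicate 3, 0.192% in line 1712 replicate 1, 0.172% in EV replicate 1 and 0.217% in EV replicate 2. Within each of the 3 groups, every high library thus gave them a larger share than every low one. On both sides, part of this share was 1 gene, LOC116188517. Without that gene the members held 0.406% to 1.26% of the counts of a high library and 0.0838% to 0.153% of those of a low one.

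**Figure D1:**
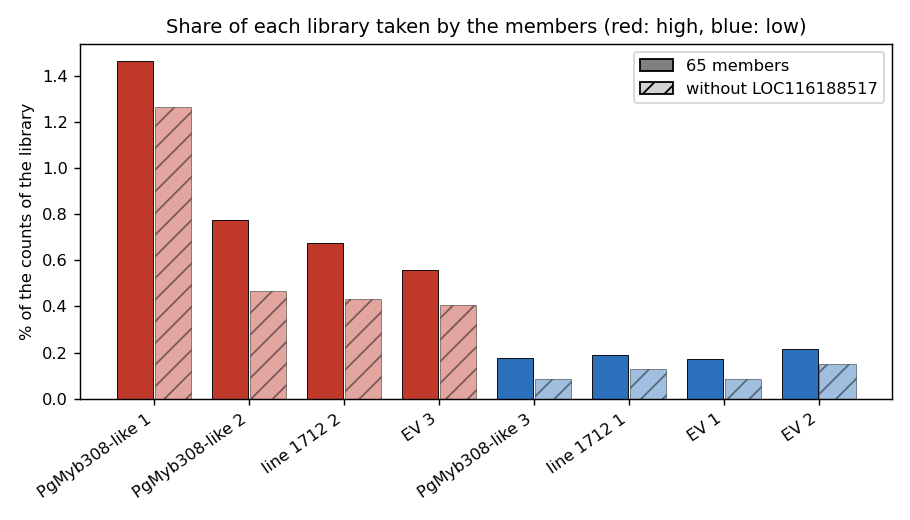
Share of each library's counts (y axis, %) taken by the 65 genes, for the 4 high (red) and 4 low (blue) libraries on the x axis, with hatched bars for the share without LOC116188517. The bar of PgMyb308-like replicate 1 reaches 1.46% and no low library exceeds 0.217%.

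The median member had a normalized count of 202 in PgMyb308-like replicate 1, against 71.2 in replicate 2, 82.3 in line 1712 replicate 2 and 85.0 in EV replicate 3. In the low libraries the median was 10.4 in PgMyb308-like replicate 3, 18.1 in line 1712 replicate 1, 13.2 in EV replicate 1 and 20.3 in EV replicate 2. A normalized count is the raw count divided by the size factor of its library. Over all 12628 genes the median lay between 69.3 and 74.6 in every library, so the scaling had placed the libraries on a like level. The median member was near that level in 3 of the high libraries and below it in all 4 low ones. It exceeded it clearly in PgMyb308-like replicate 1 only.

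**Figure D2:**
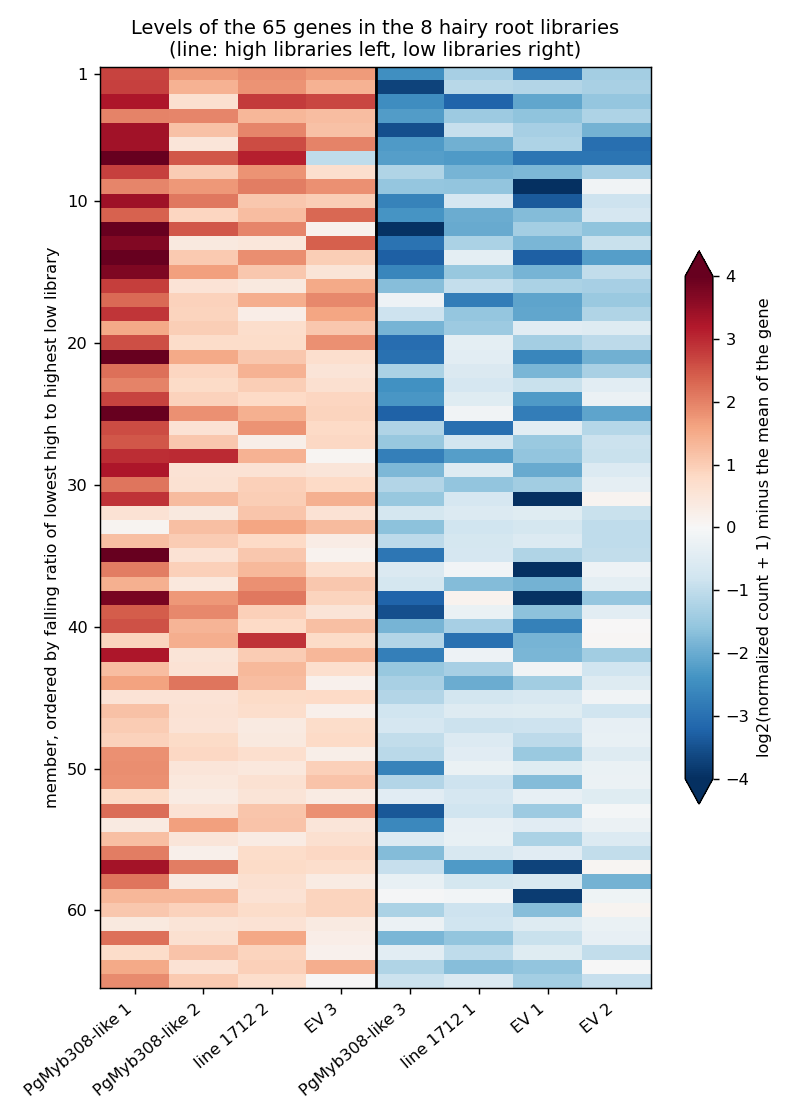
Levels of the 65 genes (rows, ordered by the falling ratio of lowest high to highest low library) in the 8 libraries (columns, high left of the line and low right of it), as log2(normalized count + 1) minus the mean of the gene. The darkest red is in the column of PgMyb308-like replicate 1, which was the highest library for 52 of the 65 genes.

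Between the sides, the ratio of the lowest high library to the highest low library ran from 1.51 to 8.73, with a median of 1.85. It was at least 2 for 29 genes, at least 3 for 11 and at least 4 for 8. The middle of the sides lay farther apart, and the median ratio of the high libraries' median to the low libraries' median was 5.52. The ratio of the extremes is also a ratio of 2 counts, and its exact (Clopper-Pearson) 95% interval lay above 1 for 52 genes and reached 1 or less for 13. These intervals cover counting error only, and take no account of the choice of the 2 extreme libraries. Depth limited some members, since the lowest high library held under 20 counts for 7 genes and under 10 for 2.

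LOC116209307 (chromosome 5, 13153769 to 13157450 in assembly ASM765513v2) had the widest gap. Its normalized counts were 269 and 133 in PgMyb308-like replicates 1 and 2, 149 in line 1712 replicate 2 and 134 in EV replicate 3, against 6.50 in PgMyb308-like replicate 3, 15.2 in line 1712 replicate 1, and 4.81 and 14.9 in EV replicates 1 and 2. Of the 4 high values, 3 lay close together and PgMyb308-like replicate 1 stood above them. The ratio of 8.73 (95% interval 5.73 to 13.8) rested on 129 against 27 counts. By construct the groups overlapped, with means of 136 ± 131 (SD, n = 3) for PgMyb308-like, 82.3 ± 94.8 (SD, n = 2) for line 1712 and 51.2 ± 71.9 (SD, n = 3) for EV.

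LOC116193270 (chromosome 1, 3094693 to 3096539) was the other gene of wide gap with more than 50 counts in every high library. Its high values were 127, 125, 79.5 and 73.9 in PgMyb308-like replicates 1 and 2, line 1712 replicate 2 and EV replicate 3, and its low values were 5.85, 10.7, 9.62 and 12.8 in PgMyb308-like replicate 3, line 1712 replicate 1 and EV replicates 1 and 2. The 4 high values stayed within a narrow range and both PgMyb308-like ones were above the others. The ratio was 5.77 (95% interval 3.17 to 11.5).

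The other 6 genes had ratios above 4 at lower counts. In the same order of libraries, LOC116199022 (chromosome 3, 14792949 to 14794429) read 85.5, 33.0, 44.7 and 33.2 on the high side and 0, 5.08, 4.81 and 4.27 on the low side, a ratio of 6.50 (3.03 to 15.5). LOC116201501 (chromosome 3, 9258794 to 9259780) read 118, 24.8, 43.3 and 24.9, then 0, 5.08, 3.61 and 2.13, a ratio of 4.88 (2.19 to 11.9). LOC116194892 (chromosome 2, 44350312 to 44351388) read 105, 31.0, 54.4 and 24.2, then 5.85, 3.39, 3.61 and 5.33, a ratio of 4.13 (1.95 to 9.78). All 3 had the same profile, with PgMyb308-like replicate 1 on top, line 1712 replicate 2 next, and PgMyb308-like replicate 2 close to EV replicate 3.

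The remaining 3 rested on very few counts on the low side. LOC116202342 (chromosome 4, 39392311 to 39393752) read 85.5, 13.4, 62.8 and 57.3 in the high libraries and 0.65, 0, 1.20 and 2.13 in the low ones, with a ratio of 6.30 from 13 against 2 counts (1.42 to 57.4). LOC116206904 (chromosome 5, 2529317 to 2530803) read 81.8, 10.3, 47.4 and 30.4, then 0.65, 1.13, 2.41 and 0, with a ratio of 4.28 from 10 against 2 counts (0.914 to 40.3). In both genes PgMyb308-like replicate 2 was the lowest of the high libraries. LOC116205512 (chromosome 4, 4479058 to 4479939) read 406, 41.3, 64.2 and 2.76, then 0.65, 0.56, 0 and 0, and here EV replicate 3 was the lowest high library with 4 counts against 1. Its interval, 0.421 to 209, left the gap between EV replicate 3 and the low libraries not detectable at this depth. The 3 overexpression libraries on the high side lay well above all 3 EV lines in this gene.

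The 6 most abundant members had narrower gaps on many more counts. LOC116188517 (chromosome 8, 11463713 to 11465288) had by far the highest mean, 3238, with values of 4619, 6206, 5123 and 3139 on the high side and 2060, 1372, 1975 and 1408 on the low side. It was high in every library and its ratio of 1.52 (1.46 to 1.60) lay near the threshold. Counts were made near 3′ ends and not divided by gene length. Levels were compared mainly between libraries within a gene, and most abundant means the highest mean normalized count.

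LOC116204721 (chromosome 4, 14672710 to 14675188) read 3952, 621, 625 and 584 in the high libraries and 120, 290, 103 and 287 in the low ones. LOC116196799 (chromosome 2, 6871387 to 6873609) read 2266, 650, 608 and 631, then 68.9, 247, 71.0 and 296. The profiles of these 2 genes were alike in detail, with 3 high libraries almost level, PgMyb308-like replicate 1 several times above them, line 1712 replicate 1 and EV replicate 2 in the middle, and PgMyb308-like replicate 3 and EV replicate 1 lowest. Their ratios were 2.01 and 2.05.

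LOC116207174 (chromosome 5, 11020515 to 11021405) read 2726, 254, 363 and 191 on the high side and 22.1, 106, 73.4 and 86.4 on the low side, a ratio of 1.80 (1.49 to 2.17). Most of its signal therefore lay in 1 library. LOC116195536 (chromosome 2, 32841000 to 32844036) read 951, 689, 603 and 774, then 296, 259, 265 and 373, and LOC116200903 (chromosome 1, 2384046 to 2385045) read 933, 568, 515 and 636, then 277, 328, 168 and 276. In these last 2 no library stood several times above the others of its side, and the ratios were 1.62 and 1.57. In LOC116200903 the values within each side spread wider than its gap.

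**Figure D3:**
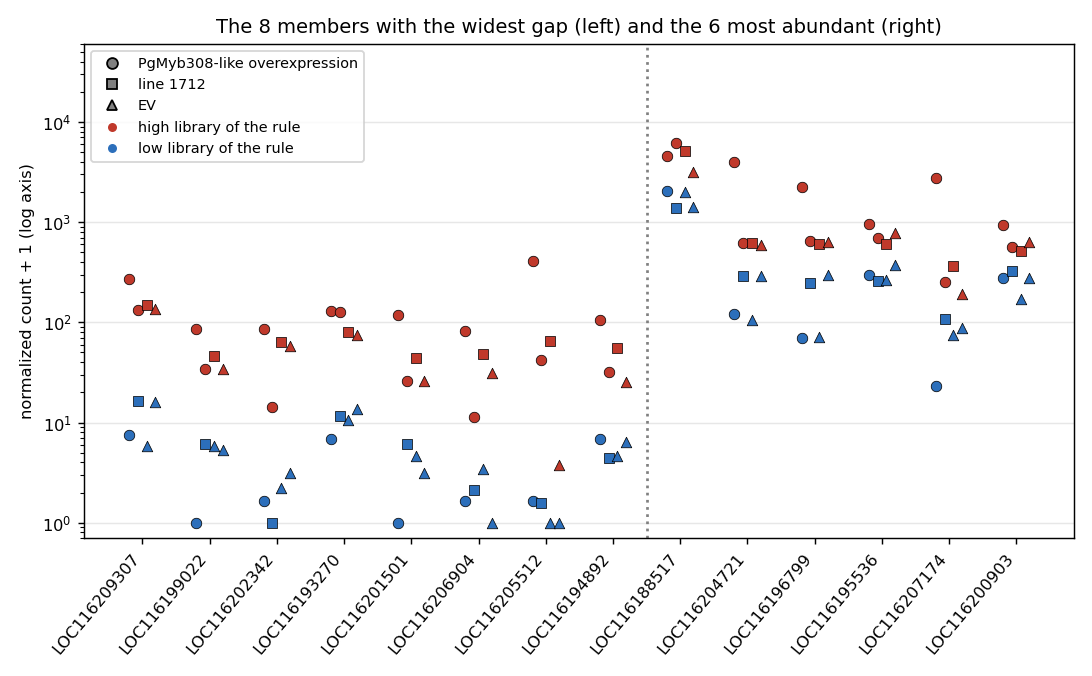
Normalized count + 1 (y axis, log) of the 8 members with the widest gap, left of the dotted line, and the 6 most abundant, right of it, with 1 symbol per library: circles PgMyb308-like, squares line 1712, triangles EV, red for high and blue for low libraries. Red lies above blue for each gene because the rule asked for it, and the distance is widest for LOC116209307 (ratio 8.73) and narrow for LOC116188517 (1.52).

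The high libraries did not contribute alike. PgMyb308-like replicate 1 was the highest library for 52 of the 65 genes (80%), line 1712 replicate 2 for 7, PgMyb308-like replicate 2 for 5 and EV replicate 3 for 1. Over all 12628 genes PgMyb308-like replicate 1 was the highest for 20.6%, and for 39.0% of the 6671 genes whose highest library was 1 of the same 4. This library was also the shallowest of the 8, with 1263321 counts, and the part of depth in its high values was not tested.

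The level in PgMyb308-like replicate 1 was 0.439 to 19.5 times the median of the other 3 high libraries, with a median of 2.53. For 24 genes (36.9%) it was at least 3 times that median, against 2.91% of all genes, for 21 it was 1.5 to 3 times, for 17 between 0.67 and 1.5 times, and for 3 lower. The rule had a part in this distance, since it takes genes that differ between libraries and sets no upper limit. So had the minimum mean. Of the 65, 13 had a mean under 20 over the other 7 libraries and passed through PgMyb308-like replicate 1 alone. Among the 52 that did not need it, this library was the highest for 41 and at least 3 times the median of the other high libraries for 18 (34.6%). The widest was LOC116201624, at 362 in PgMyb308-like replicate 1 against 18.6, 33.5 and 17.96 in the other high libraries, and 0, 6.21, 0 and 1.07 in the low ones. It was the 1 long non-coding RNA among the members. LOC116196660 was of the same kind at a higher level, with 2080 against 226, 169 and 127, and low values of 9.10, 58.7, 12.0 and 20.3.

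A smaller set had PgMyb308-like replicate 1 as its lowest or an ordinary high library. LOC116215190 read 20 in it, against 43.4 in PgMyb308-like replicate 2, 57.2 in line 1712 replicate 2 and 45.6 in EV replicate 3, with 5.2 to 10.8 on the low side. LOC116188732 was highest in line 1712 replicate 2, at 92.1, against 20.03 to 33.0 in the other high libraries and 0.56 to 11.7 in the low ones. LOC116202637 was the third gene under 0.67 times, with 21.8 in PgMyb308-like replicate 1 and 53.7 in replicate 2.

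Among the high libraries other than PgMyb308-like replicate 1 no single order held. PgMyb308-like replicate 2 exceeded EV replicate 3 in 34 of 65 genes (50.1% of all genes), line 1712 replicate 2 exceeded EV replicate 3 in 42 (49.8% of all genes) and PgMyb308-like replicate 2 in 36. EV replicate 3 was the lowest high library for 28 genes, PgMyb308-like replicate 2 for 21, line 1712 replicate 2 for 14 and PgMyb308-like replicate 1 for 2. With PgMyb308-like replicate 1 included, all 3 high overexpression libraries lay above EV replicate 3 in 28 genes (43.1%), against 25.5% of all genes. PgMyb308-like replicate 1 exceeded EV replicate 3 in 61 of the 65 (93.8%), against 51.7% of all genes. The part of the construct in this was not tested.

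On the low side the 4 libraries were also uneven. PgMyb308-like replicate 3 was the lowest of them for 30 genes and EV replicate 1 for 20, while EV replicate 2 was the highest of them for 26 and line 1712 replicate 1 for 20. PgMyb308-like replicate 3 lay below line 1712 replicate 1 in 46 of 65 genes (50.8% of all genes), and EV replicate 1 below EV replicate 2 in 48 (50% of all genes). PgMyb308-like replicate 3 held 3484260 counts and EV replicate 1 held 1854987, and the part of construct and depth in this order was not tested. In 11 members at least 1 low library was at 0, a value that allows up to 3 counts, and none of the 65 was at 0 in a high library.

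Within each group the members' spread was wide. EV replicate 3 had a median of 3.56 times the mean of EV replicates 1 and 2 (range 1.67 to 34.4 over the 64 members with a mean above 0), line 1712 replicate 2 had a median of 3.61 times replicate 1 (1.57 to 164, 64 members), and the mean of PgMyb308-like replicates 1 and 2 a median of 11.7 times replicate 3 (1.64 to 344, 61 members). The same medians over all genes were 0.994, 1.00 and 1.02. The rule fixed that each of these is at least 1.5 for the members, so the distance to all genes is a description. The biological coefficient of variation fitted by edgeR had a median of 0.810 over the members and 0.380 over all 15957 genes tested, a difference in the direction that the rule sets.

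The study's question was which genes change when the Myb factor is overexpressed, and the members were therefore read in the 3 comparisons between constructs. All 65 were tested, and none was called in any of the 3 with a Benjamini-Hochberg adjusted p under 0.05 over 15957 genes and a log2 fold change beyond 1 in either direction (edgeR quasi-likelihood test). The groups overlapped for every member, as the rule sets PgMyb308-like replicate 3 below EV replicate 3. The 3 comparisons share their libraries, and the rule placed 2 of 3 PgMyb308-like lines, 1 of 2 line 1712 libraries and 1 of 3 EV lines on the high side. A direction toward higher values in PgMyb308-like was partly set by that choice.

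Against EV, all 65 members had a higher fitted mean in PgMyb308-like, with a median log2 fold change of 1.29 (range 0.01 to 6.79) and a median of 0.01 over all genes. The median standard error was 1.04, against 0.44 over all genes, and a large error was set by the rule, which asks for a split inside every group. With edgeR 9 members (13.8%) were higher at an unadjusted p under 0.05, beside 4.85% of all genes, and with DESeq2 12 members were, beside 5.4% of all genes. An excess in this direction was built in by the rule, and nothing is read from it. No member was called, beside 0.0313% of all genes called higher with edgeR and 0.934% with DESeq2. Adjusted p-values of the members ran from 0.433 to 0.998 (edgeR). The smallest belonged to LOC116205512, with a log2 fold change of 6.79 ± 2.18 (SE) and an edgeR adjusted p of 0.433, whose means were 149 ± 223 (SD, n = 3) in PgMyb308-like and 0.92 ± 1.59 (SD, n = 3) in EV. LOC116192092 followed with 1.69 ± 0.65 (SE, edgeR adjusted p = 0.514) and LOC116196660 with 3.79 ± 1.49 (SE, edgeR adjusted p = 0.532).

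These values leaned on single lines, in part because of the rule. It set PgMyb308-like replicate 3 below the other lines of its construct and EV replicate 3 above the other EV lines. The rises without either of these lines were therefore fixed in advance. It also set PgMyb308-like replicate 1 above replicate 3, and EV replicates 1 and 2 below EV replicate 3. Falls of the median without PgMyb308-like replicate 1, EV replicate 1 or EV replicate 2 were thus favoured in advance, and nothing is read from them. Without PgMyb308-like replicate 1 the median log2 fold change against EV was 0.23 and no member was at an unadjusted p under 0.05, beside 4.1% of all genes higher at that level. Without EV replicate 3 the median was 2.35, with 20 of the 64 members tested under 0.05 beside 4.79% of all genes. Without PgMyb308-like replicate 3 it was 1.82, with 27 of 65 members under 0.05 beside 6.55% of all genes. The lowest edgeR adjusted p of a member was then 0.0698. Calls over all genes in either direction also rose in that last fit, from 6 to 129. Leaving out EV replicate 1 gave 0.81 and EV replicate 2 gave 0.93. In none of these fits was a member called, beside 0.0508% of all genes called higher when PgMyb308-like replicate 1 was left out, 0.566% when replicate 3 of that construct was, and 0.0% when EV replicate 3 was (edgeR).

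In line 1712 against EV, 47 members were fitted higher and 18 lower, with a median log2 fold change of 0.51 (range -1.48 to 4.55). None was at an unadjusted p under 0.05 (4.26% of all genes in either direction) and all adjusted p-values were 1.00 (edgeR, 0.00627% of all genes called). The median was -0.98 without line 1712 replicate 2 and 1.13 without line 1712 replicate 1. The rule placed replicate 2 above replicate 1 in every member, so the order of these 2 medians was fixed in advance. Between PgMyb308-like and line 1712, 59 members were fitted higher in PgMyb308-like and 6 lower, with a median of 0.73 (range -1.22 to 2.74). Again none was at an unadjusted p under 0.05 (3.55% of all genes), the adjusted p-values were 0.998 to 0.999, and 0.0% of all genes were called (edgeR). Without PgMyb308-like replicate 1 that median was -0.17, without line 1712 replicate 1 it was 0.07, without PgMyb308-like replicate 3 it was 1.29 and without line 1712 replicate 2 it was 2.38. The rule likewise fixed the rise without PgMyb308-like replicate 3 and the order of the medians without either line 1712 library. A fall without PgMyb308-like replicate 1 was favoured by it.

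**Figure D4:**
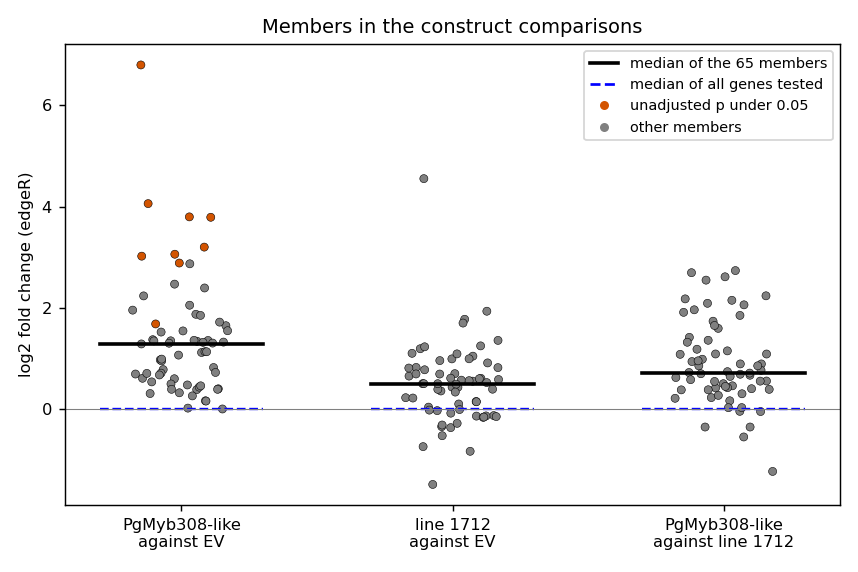
Log2 fold change (y axis, edgeR) of the 65 members, 1 point each, in the 3 comparisons between constructs on the x axis, with the median of the members (solid bar) and of all genes tested (dashed bar). Orange points have an unadjusted p under 0.05, which 9 members had in the first comparison and none in the others, and no point is past the adjusted threshold.

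Features of the genes that the rule did not use were read from the annotation, with no test. The members were short genes, with a median length of 1710 bp (quartiles 1072 and 2721) where the 12628 genes had 3262 bp. Of the 65, 37 (56.9%) were under 2 kb, against 21.3% of all, and 58 (89.2%) had a single annotated transcript, against 66.5%. The 72 genes of the opposite pattern were like them, with a median of 1872 bp, 55.6% under 2 kb and 88.9% with a single transcript. Short length was thus shared by both patterns and does not set the members apart from genes with the reverse split.

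**Figure D5:**
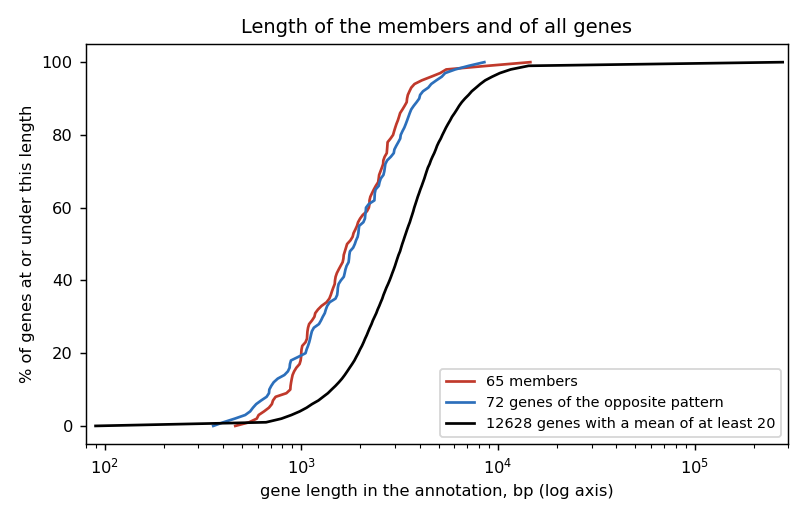
Gene length in the annotation (x axis, bp, log) against the percentage of genes at or under it (y axis), for the 65 members (red), the 72 genes of the opposite pattern (blue) and all 12628 genes (black). The red and blue curves run together left of the black one, with medians of 1710, 1872 and 3262 bp.

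Length did not follow the dominance of PgMyb308-like replicate 1 over all genes, since the 2603 genes highest in that library had a median of 3159 bp. The 24 members with that library at 3 times the others or more had a median of 1448 bp, and the remaining 41 had 2035 bp. Biotypes were as in the table, with 98.5% of members and 98.3% of all genes protein coding.

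The members lay on all 8 chromosomes. Chromosome 1 held 15 of them (23.1%, with 15.1% of all genes), chromosome 4 held 11 (16.9% and 15.4%) and chromosome 5 held 9 (13.8% and 10.7%). Chromosome 2 held 8 (12.3% and 16.2%), as did chromosome 3 (12.3% and 12.8%). Chromosome 7 held 7 (10.8% and 10.6%), chromosome 8 held 5 (7.69% and 9.76%) and chromosome 6 held 2 (3.08% and 9.29%). No 2 members were next to each other in the annotation, and 7 lay within 100 kb of another.

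The closest company was on chromosome 5, where LOC116207174, LOC116207042 and LOC116207215 lay within 68218 bp, from 11020515 to 11088732. LOC116207042 read 475, 71.2, 100 and 126 in the high libraries and 6.50, 42.4, 13.2 and 18.1 in the low ones, and LOC116207215 read 300, 211, 106 and 79.4, then 3.90, 45.8, 16.8 and 40.5. The 3 genes shared PgMyb308-like replicate 1 as their top library, and line 1712 replicate 1 as their highest low library. Between the last 2 lay 3 other genes. One of them, LOC116208622, had a ratio of 1.47, just short of the threshold, and LOC116207243 had 1.06.

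On chromosome 3, LOC116198759 and LOC116201344 lay 17501 bp apart with 1 gene between them. LOC116201344 read 1622, 379, 253 and 171 on the high side and 18.8, 41.2, 32.5 and 60.8 on the low side, and LOC116198759 read 678, 296, 202 and 265, then 31.2, 45.2, 16.8 and 117. The gene between, LOC116201343, read 284, 16.5, 83.7 and 81.5, then 20.8, 18.1, 8.42 and 29.9. It failed the rule through PgMyb308-like replicate 2 alone. LOC116200895, on the other side of LOC116201344, read 686, 170, 236 and 1.38, then 3.90, 18.6, 1.20 and 0, and failed through EV replicate 3 alone. Over all members, 10 of the 88 flanking genes with a mean of at least 20 had every high library above every low one (11.4%), against 543 of 12628 genes (4.30%).

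On chromosome 1, LOC116215190 and LOC116192092 lay 51175 bp apart, again with 1 gene between. That gene, LOC116215203, overlaps LOC116215190 and did not share its split, with 73.2 to 140 on the high side and 78.2 to 112 on the low side. Of the members, 3 overlapped another annotated gene and 3 others lay within 100 bp of one. Use of strand in the counting was not given in the sources used here, so reads of such neighbours may not be told apart. LOC116201501 lay 76 bp from LOC116201500 and LOC116206904 79 bp from LOC116206902, and neither neighbour shared the split (ratios 0.354 and 0.284).

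At the edge of the rule, the members just inside the ratio were LOC116192092 (1.51), LOC116196059 (1.52) and LOC116188517 (1.52), and the genes just outside were LOC116197200 (1.495), LOC116200505 (1.49) and LOC116195835 (1.49). By mean level, LOC116203354 (20.5) and LOC116203353 (20.7) were just inside, and LOC116196871 (18.9) and LOC116193547 (18.4) met the ratio and fell under the mean. LOC116203354 shows how small a split the rule admits, with 25.5, 27.9, 29.3 and 24.9 on the high side and 16.2, 10.7, 13.2 and 15.99 on the low side. Across the 65 genes the ratio and the mean level had a Spearman's rho of -0.164, a description over genes that share their libraries. The median ratio was 1.77 for the 26 members with a mean of 100 or more and 2.05 for the 22 with a mean under 50.

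The 2 genes set aside show the same library from another angle. LOC116211130 (chromosome 6, 27756697 to 27757814) and LOC116216094 (chromosome 8, 19255633 to 19256249) had 114 and 236 counts in PgMyb308-like replicate 1, or 207 and 429 normalized counts. Each had 1 count in PgMyb308-like replicate 2 and 1 in EV replicate 3, and 0 in line 1712 replicate 2 and in all low libraries. Both met the rule only because 0 is not less than 1.5 times 0, and they were genes of 1 library and not of 4.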

How the data were processed

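Total RNA of hairy roots was sequenced by TranSeq in 8 libraries. Per the study's methods and the submitters' processing notes, the authors aligned the reads with STAR 2.4.2a to the pomegranate genome and counted them with HTSeq 0.6.1p1 near the 3′ ends of NCBI genes (the notes also list cutadapt, bcl2fastq 2.17.1.14, DESeq2 1.10.1 and DESeq). The authors deposited these raw counts and a normalized signal, the counts divided by 1 size factor per library (0.550 to 1.77). Multiplied back, 99.998% of the normalized values came within 0.05 of a whole number and 100% equalled the deposited counts. The test reported was run on these deposited counts and called 6 genes between PgMyb308-like and EV (DESeq2 called 200). The count table lists genes whose highest count is 6 or more.

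Members were found on the normalized values, and construct comparisons on the counts with edgeR 4.0.16 in R 4.3.3 (filterByExpr with minimum count 10 and total 15, TMM, quasi-likelihood test, 8 libraries and 3 groups in 1 fit, 5 residual degrees of freedom, calls at an adjusted p under 0.05 with a log2 fold change beyond 1 in either direction). DESeq2 1.42.0 was an alternative. The procedure was tested on simulated data. The members, the rule and the lists were chosen with earlier results of these data known. The text names the 8 members with the largest ratio, the 6 with the highest mean and those at the thresholds. Others were named after their values were seen, for their profile among the high libraries, the smallest p, or their neighbours. Of the 18831 identifiers, 18820 were found in the RefSeq table of ASM765513v2 and 11 were not. This table holds positions and biotypes, so the lists of protein motifs, promoter motifs, pathways and cell type markers were not tested and no sequence is printed. The labels number the replicates. Across the numbers, deviations of same-numbered libraries correlated between -0.270 and 0.203, and the numbers were not taken as pairs.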

Additional observations from a re-analysis of the deposited data

How the results depend on the processing

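The 3 comparisons were read under 35 alternatives in all, 13 of them for PgMyb308-like against EV (DESeq2, RLE size factors, no filter, a minimum mean of 20, no fold threshold and the replicate block for each comparison, the 6 EV and PgMyb308-like libraries alone for that comparison, and each library left out of the comparisons that hold it). No member was called in any of the 35, where the lowest adjusted p was 0.0698 (edgeR, without PgMyb308-like replicate 3). The rule asked for a split inside every group, which enlarged the members' errors. An absence of calls was thus favoured in advance, and nothing is read from it. Over all genes the calls in either direction moved, from 6, 1 and 0 with edgeR to 200, 79 and 12 with DESeq2 (PgMyb308-like against EV, line 1712 against EV, PgMyb308-like against line 1712), and in the first comparison to 129 without PgMyb308-like replicate 3 and 20 with no filter. With the replicate block, which is no pairing here since same-numbered libraries did not deviate together, 0 members were called in each comparison. The number of members was 65, and 64 of these were shared with the 64 found under TMM scaling and with the 86 found under scaling by library totals. A minimum mean of 50 gave 43 and no minimum 119, a lower ratio threshold gave 154 and one of 2 gave 29. Leaving out 1 library gave 61 (without PgMyb308-like replicate 1, 52 of them shared) to 196 (without EV replicate 3), with 182 without EV replicate 2, 126 without line 1712 replicate 1, 107 without PgMyb308-like replicate 2 and 105 without line 1712 replicate 2. With a library left out fewer values must satisfy the ratio, while the minimum mean is taken over the remaining 7, and 13 members fell under it without PgMyb308-like replicate 1. With the 2 genes at 0 against 0, an alternative chosen after seeing the data, it was 67. Thinned to 1263321 counts per library, 49 genes met the rule and 35 of them were shared with the 65.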
